A study of Solanum lycopersicum with 36 samples.

Results

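Shoots and roots of nitrogen-starved wild type tomato seedlings were compared across all genes of the table. The 6 libraries were those labelled wild type and without nitrogen (-N), 3 from shoots and 3 from roots, out of 36 libraries in 12 groups. The study crossed 3 genotypes, namely wild type (WT, cultivar Castlemart II) and CRISPR mutants of the histone methyltransferase genes *SDG33* and *SDG34*, with 2 organs and with N supplied (+N) or withheld. All plants grew hydroponically in full nutrient medium, were starved of N for 2 days, and were moved to fresh +N or -N medium for 5 h before harvest. In the -N medium, potassium nitrate, calcium nitrate and ammonium phosphate were replaced by salts free of N, so both WT -N groups had neither nitrate nor ammonium since the start of starvation. The +N medium held 1.2 mM potassium nitrate, 0.8 mM calcium nitrate and 0.2 mM ammonium phosphate. Each replicate was a pool of 3 plants, and the sources do not say whether the shoot and root libraries came from the same plants. The shoot libraries held all above-ground cell types together, and the root libraries all root cell types. WT carried both *SDG* genes, and the *sdg33* and *sdg34* libraries are used below only where the organ difference of a mutant was set against that of WT.

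Shoots fix carbon in chloroplasts, and leaf cells make the light harvesting proteins, chlorophyll enzymes and flavonoid sunscreens that go with light. Roots take up nitrate through low-affinity NRT1-type and high-affinity NRT2-type transporters, take up phosphate and sulfate, and build walls with extensins, peroxidases and suberin. Nitrate is reduced to nitrite by nitrate reductase and then to ammonium by nitrite reductase, in either organ, before ammonium enters amino acids.

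The values are read counts per gene that the authors quantile normalized over the 36 libraries, so every library has the same total of 19667069 over 35872 loci and the sequencing depth of a library is unknown. A gene was tested when its value was at least 10 in at least 3 of the 6 libraries, which 21035 loci met. A gene seen in 1 organ alone enters through that organ, and among those tested 262 were listed at 0 in all 3 root libraries and 560 in all 3 shoot libraries. Differences are shoot minus root on the log2(value + 1) scale, tested with limma and adjusted by Benjamini-Hochberg over all loci tested, so a positive value is higher in shoots. That scale understates differences of genes with low values. The 3 root libraries resembled each other (Pearson r of log2 values 0.985 to 0.987) more than the 3 shoot libraries did (0.958 to 0.975), and shoot with root gave 0.482 to 0.499. The median gene had an SD of 0.306 among shoot libraries and 0.160 among root libraries. Values of 0 to about 3 are treated as not told apart. The loci that held the lowest values differed between shoot and root libraries by chromosome and for miRNA loci, as given under the last heading. The cause of that pattern was not tested.

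Most genes differed between the organs. Of 21035 genes tested, 6186 were higher in shoots and 7477 higher in roots at an adjusted p under 0.05, which together is 65.0% of those tested (29.4% shoot, 35.5% root), and 7372 did not pass. With a log2 difference of at least 2 as well, 3086 genes (14.7%) were higher in shoots and 2949 (14.0%) higher in roots. The 3 shoot and 3 root libraries did not overlap for 14954 genes (71.1%). Among the 16689 genes with at least 10 in all 6 libraries, 1624 and 1137 passed both thresholds in shoots and roots. Because each organ is a mixture, fewer cells of a type and less RNA per cell cannot be told apart in these libraries. An exact permutation test of 3 against 3 libraries cannot give a two-sided p below 0.1, so calls rest on the fit across all genes.

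**Figure D1:**
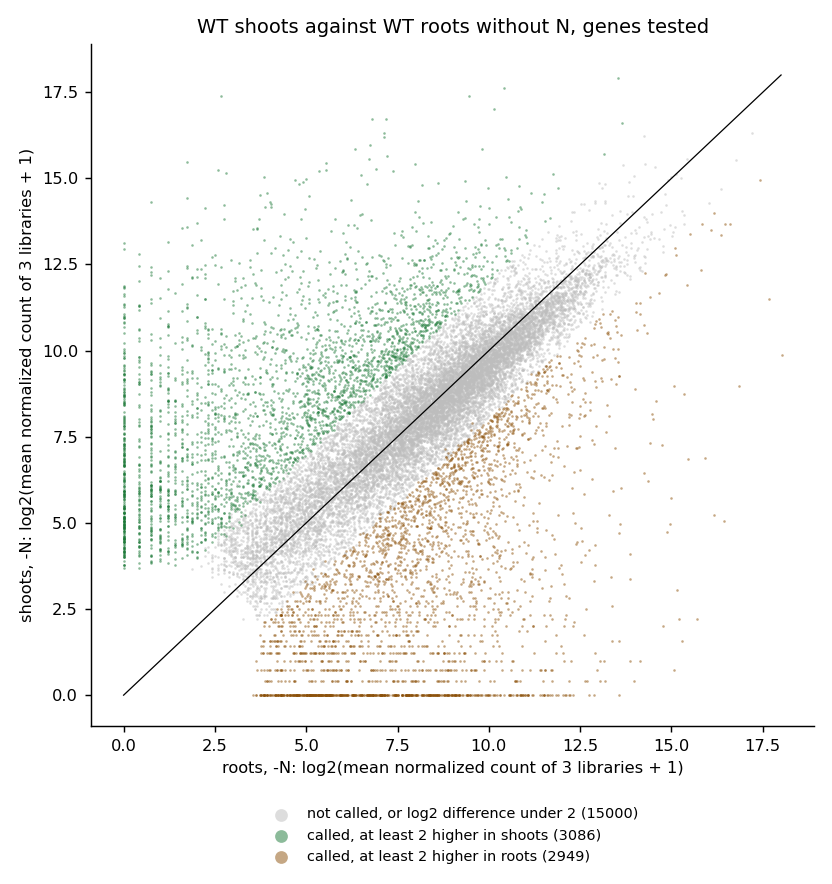
Log2 of the mean normalized count over 3 libraries plus 1, in WT -N shoots (vertical axis) against WT -N roots (horizontal axis), with a line of equal values, 1 point for each of 21035 genes tested, coloured where adjusted p was under 0.05 and the log2 difference at least 2. Points along either axis are genes at or near 0 in the other organ, and both coloured groups are of like size, 3086 in shoots and 2949 in roots.

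Genes that mark each organ were checked against the labels. All 6 light harvesting and photosystem markers fixed for shoots were higher in shoots. Of the 6 markers fixed for roots, 4 were higher in roots, 3 of them by a log2 difference of at least 2, and 1 was too low to test. The weakest of the 4 was NRT1.1 (Solyc08g078950.3), with a log2 difference of -0.67 and a call that was lost in several alternative analyses. The remaining root marker, Solyc08g078840.3, is described as a root meristem growth factor but was higher in shoots, against its name. It read 154, 46 and 158 in shoots and 3, 2 and 2 in roots (log2 difference 4.99, SE 0.51, limma adjusted p = 7.2e-05). The untested marker, the potassium transporter gene Solyc09g074820.3, read 0, 0 and 5 in shoots and 0, 3 and 4 in roots. The root cap gene Solyc07g063490.3 read 16, 10 and 17 in shoots and 1164, 614 and 920 in roots (log2 difference -5.86, SE 0.32, adjusted p = 2.0e-06). Low but nonzero values of the root cap gene stood in all shoot libraries, and no shoot library came near any root library.

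Descriptions were available for 2009 genes, of which 1487 were tested. They come from the study's own lists of genes that differ between mutants and WT. Those lists were chosen in part on these WT libraries, so the gene lists below are not a random sample of the genome. Of the described genes tested, 81.1% were called and 60.4% also passed the fold threshold, against 65.0% and 28.7% of all genes. By direction, 648 of the 1487 were called higher in shoots and 558 higher in roots. Each list below is therefore read against these shares and counts, and a list near them shows nothing particular to its family. The study's lists also go with the direction of the organ difference. Of the genes listed as up in *sdg33* shoots, 359 of 449 tested had a negative shoot minus root value in WT under -N (median -2.41), and of those up in *sdg34* shoots 392 of 465 (median -2.90). Of the genes listed as down, 592 of 768 for *sdg33* and 431 of 538 for *sdg34* had a positive one (medians 1.94 and 2.25). Of the 1487 described genes tested, 561 came from the up lists of shoots and 841 from the down lists. The direction in which a list of genes leans is therefore not independent of how its members were chosen, and the make-up of a list is given beside its count where 1 kind of source prevailed.

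Light harvesting and chlorophyll genes separated the organs most widely of all lists by median. All 7 tested of 8 members were higher in shoots, with a median log2 difference of 10.93, and 6 of 7 stood in the study's lists of genes up in mutant shoots. The chlorophyll a-b binding protein gene Solyc02g070970.1, which encodes an antenna protein, read 4530, 4508 and 7267 in shoots and 3, 0 and 4 in roots (log2 difference 10.93, SE 0.58, limma adjusted p = 1.9e-06). Its neighbour Solyc02g070980.1 read 4022, 3298 and 6806 in shoots and 1, 1 and 0 in roots (log2 difference 11.46, SE 0.39, adjusted p = 2.3e-07). For both, the third shoot library was the highest and the root libraries were at the bottom of the table. How reads were shared among neighbouring genes of this multigene family is not known. Chlorophyllase (Solyc09g065620.3), which cleaves the phytol tail from chlorophyll, read 3432, 2674 and 1767 in shoots and 0, 0 and 0 in roots, so it was listed at 0 in every root library (adjusted p = 1.1e-07). The light-dependent protochlorophyllide oxidoreductase gene Solyc12g013710.2, of the step of chlorophyll synthesis that needs light, read 1313, 1477 and 1174 in shoots and 0, 5 and 2 in roots (log2 difference 8.97, SE 0.60, adjusted p = 6.1e-06). The PsbP-like gene Solyc01g087040.2, of the oxygen-evolving side of photosystem II, had the smallest difference of the list, 204, 182 and 139 in shoots and 21, 24 and 30 in roots (log2 difference 2.76, SE 0.27, adjusted p = 5.7e-05), and was the only member with no root value near 0.

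Genes of the kind that chloroplast genomes carry also appear at loci of the nuclear assembly. Of 103 genes described as such, 70 could be tested, 61 were higher in shoots, 1 was higher in roots and 8 did not pass the test, with a median log2 difference of 3.35. By source, 68 of 70 stood in the study's lists of genes down in mutant shoots. All Rubisco large chain and photosystem II D1 loci tested lay above the median of the list. The span of the 70 loci ran from -1.21 to 8.67. Whether these reads came from the nuclear copies or from the chloroplast genome cannot be told from the table.

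Light and clock regulators were mostly higher in shoots. Of 23 genes described as such, 20 could be tested, 15 were higher in shoots, 3 were higher in roots and 2 did not pass the test, with a median log2 difference of 1.69. By source, 16 of 20 stood in the study's lists of genes down in mutant shoots. Of all genes on those lists, 592 of 768 tested for *sdg33* and 431 of 538 for *sdg34* also had a positive value. The direction is therefore not particular to light and clock regulators. The blue light receptor gene cryptochrome-1 (Solyc12g042910.2) read 1169, 1392 and 1232 in shoots and 62, 33 and 54 in roots (log2 difference 4.69, SE 0.25, limma adjusted p = 1.8e-06). The B-box zinc finger gene Solyc11g068390.1, of a family that acts in light signalling, read 618, 384 and 618 in shoots and 0, 0 and 0 in roots. The CONSTANS-like gene Solyc03g119540.3, of a family known for day length responses, read 477, 410 and 668 in shoots and 18, 8 and 21 in roots (log2 difference 5.03, SE 0.39, adjusted p = 1.3e-05). In none of these did a root library reach a shoot library. Members higher in roots included a LIGHT-DEPENDENT SHORT HYPOCOTYLS-like gene, Solyc12g014260.1, with 2, 6 and 1 in shoots and 38, 63 and 33 in roots (log2 difference -3.66, SE 0.52, adjusted p = 0.00046), whereas another gene of that name, Solyc04g009980.3, read 479, 343 and 483 in shoots and 1, 2 and 1 in roots (log2 difference 7.56, SE 0.32, adjusted p = 5.6e-07). The clock gene described as timing of cab expression 1 (Solyc03g115770.3), a core repressor of the evening phase in Arabidopsis, differed less, at 121, 128 and 109 in shoots and 199, 208 and 214 in roots (log2 difference -0.79, SE 0.18, adjusted p = 0.00483). That call was lost in the fit of 36 libraries, where adjusted p was 0.0527.

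Nitrogen genes went in both directions between the organs. Of 12 genes described as such, 9 could be tested. Of these, 2 were higher in shoots, 5 higher in roots and 2 did not pass, with a median log2 difference of -1.17. The putative high-affinity nitrate transporter gene Solyc06g074990.2 read 3, 5 and 14 in shoots and 49492, 24130 and 35396 in roots (log2 difference -12.26, SE 0.48, limma adjusted p = 4.1e-07). Another gene described as a high-affinity nitrate transporter, Solyc02g067790.3, had the opposite pattern with 465, 326 and 233 in shoots and 0, 0 and 0 in roots (adjusted p = 5.3e-07). The organs did not overlap for either gene, and the latter was listed at 0 in every root library. The nitrate transporter NRT1.1 gene Solyc08g078950.3, a dual-affinity transporter and nitrate sensor in Arabidopsis, read 4353, 3333 and 2244 in shoots and 4793, 5879 and 4678 in roots (log2 difference -0.67, SE 0.23, adjusted p = 0.0359). That call was lost in 7 of 15 alternative analyses, including the one without the second root library, where adjusted p was 0.135. The nitrate transporter gene Solyc08g007430.2 was low in both organs, at 14, 6 and 24 in shoots and 8, 7 and 15 in roots (log2 difference 0.40, SE 0.53, adjusted p = 0.538), and its groups overlapped.

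The steps after uptake differed too. The nitrite reductase gene Solyc10g050890.2, of the plastid enzyme that makes ammonium, read 315, 190 and 326 in shoots and 5585, 3746 and 5278 in roots. Its log2 difference was -4.15 (SE 0.24, limma adjusted p = 3.1e-06), a root level 17.6 times the shoot level. Nitrate reductase (Solyc11g013810.2) read 48874, 31735 and 19773 in shoots and 30399, 35396 and 30993 in roots, with a log2 difference of -0.04 (95% interval -0.76 to 0.68, adjusted p = 0.917). The root values of nitrate reductase lay inside the range of the shoot values, unlike those of nitrite reductase. Glutamate decarboxylase makes GABA from glutamate, and its genes split by organ. Solyc04g025530.3 read 27, 13 and 32 in shoots and 204, 178 and 110 in roots (log2 difference -2.77, SE 0.41, adjusted p = 0.00056), and Solyc01g005000.3 read 1422, 2608 and 1661 in shoots and 580, 484 and 526 in roots (log2 difference 1.79, SE 0.22, adjusted p = 0.0002). Each gene was fully separated between organs, in opposite directions. Both glutamine dumper 4 genes tested, of a family whose members promote amino acid export in Arabidopsis, were higher in roots. One of them, Solyc12g096480.1, read 6, 1 and 2 in shoots and 24, 64 and 24 in roots (log2 difference -3.31, SE 0.59, adjusted p = 0.00156). The cationic amino acid transporter gene Solyc11g006710.2 read 22, 21 and 29 in shoots and 68, 48 and 50 in roots (log2 difference -1.17, SE 0.29, adjusted p = 0.00888).

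**Figure D2:**
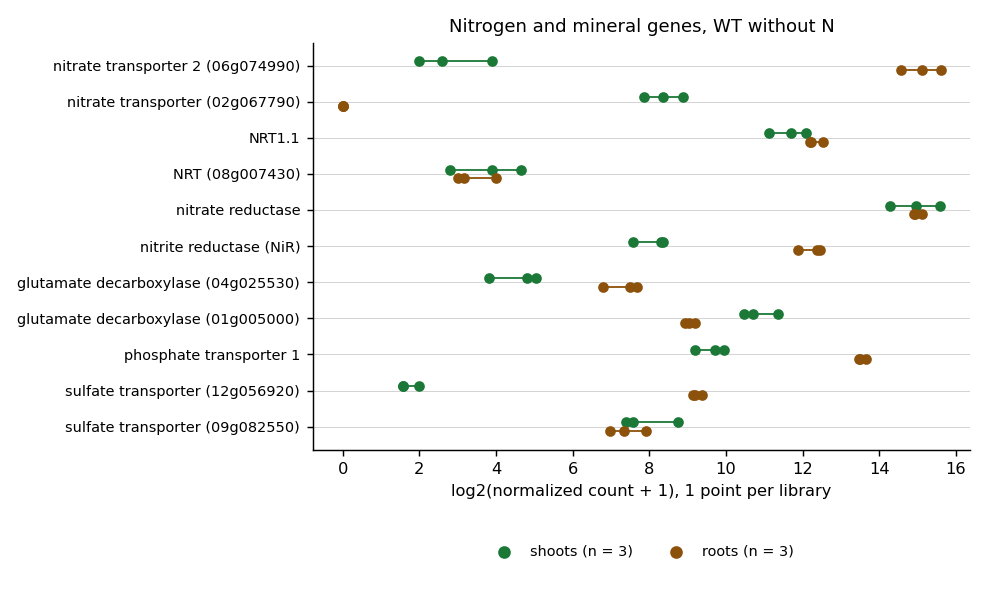
Log2(normalized count + 1) in each WT -N library (horizontal axis) for genes of nitrate transport, nitrate and nitrite reduction and mineral uptake, with green points for the 3 shoot libraries, brown points for the 3 root libraries and a line from the lowest to the highest library of a group. The high-affinity transporter genes Solyc06g074990.2 and Solyc02g067790.3 are high in opposite organs, while nitrate reductase overlaps between organs.

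Transporters of other minerals and of sugars were likewise divided. Of 25 genes described as such, 23 could be tested, 11 were higher in shoots, 7 were higher in roots and 5 did not pass the test, with a median log2 difference of 1.12. Phosphate transporter 1 (Solyc09g090070.1), of the family that takes up phosphate from soil, read 844, 586 and 988 in shoots and 11252, 11482 and 12820 in roots (log2 difference -3.91, SE 0.19, limma adjusted p = 1.2e-06). The sulfate transporter gene Solyc12g056920.2 read 2, 3 and 2 in shoots and 667, 563 and 588 in roots (log2 difference -7.52, SE 0.27, adjusted p = 2.7e-07). Tonoplast intrinsic protein 1.3 (Solyc10g083880.2), an aquaporin of the vacuole membrane, read 0, 0 and 0 in shoots and 1681, 1808 and 2028 in roots (adjusted p = 6.0e-08). These 3 uptake and vacuole genes were thus far higher in every root library than in any shoot library. On the shoot side, the heavy metal transport and detoxification gene Solyc11g012690.2 read 1804, 1532 and 1618 in shoots and 0, 3 and 1 in roots (log2 difference 9.69, SE 0.48, adjusted p = 1.3e-06). The PHO1-like gene Solyc05g013180.3, whose Arabidopsis relative loads phosphate into the xylem, read 231, 436 and 221 in shoots and 38, 32 and 36 in roots (log2 difference 2.96, SE 0.31, adjusted p = 7.4e-05). The heavy metal ATPase 4 gene Solyc03g116465.1, of a zinc pump in Arabidopsis, read 352, 264 and 190 in shoots and 27, 36 and 36 in roots (log2 difference 2.95, SE 0.29, adjusted p = 5.6e-05). The last 2 are thus higher in shoots in tomato seedlings here, with no overlap.

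Sulfate reduction separated the organs less. Of 6 members, 4 could be tested and 1 passed, the adenylylsulfate reductase gene Solyc02g032860.3 with 3693, 2101 and 3417 in shoots and 1648, 1001 and 1387 in roots (log2 difference 1.18, SE 0.26, limma adjusted p = 0.00454). Adenylyl-sulfate reductase Solyc02g080640.3, of the same enzymatic step, read 9706, 6620 and 8230 in shoots and 10866, 5972 and 9464 in roots, a log2 difference of -0.07 with a 95% interval of -0.64 to 0.50. Its groups overlapped, with the second library lowest in both organs.

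Enzymes of phenylpropanoid and flavonoid synthesis lay on both sides. Of 25 genes described as such, 23 could be tested, 11 were higher in shoots, 11 were higher in roots and 1 did not pass the test, with a median log2 difference of -0.16. Chalcone synthase, which commits carbon to flavonoids, is encoded by Solyc09g091510.3 (chalcone synthase 1), with 9100, 9330 and 8909 in shoots and 2, 0 and 2 in roots (log2 difference 12.10, SE 0.42, limma adjusted p = 2.6e-07). Chalcone synthase 2 (Solyc05g053550.3) read 14013, 13419 and 15772 in shoots and 3, 12 and 2 in roots (log2 difference 11.38, SE 0.49, adjusted p = 6.6e-07). Dihydroflavonol 4-reductase (Solyc02g085020.3), of the anthocyanin branch, read 4531, 4304 and 4663 in shoots and 0, 7 and 1 in roots (log2 difference 10.80, SE 0.67, adjusted p = 4.2e-06). The 3 shoot libraries lay close together for each of these genes, and root values were at or near 0. Flavonol synthase (Solyc11g013110.2), which makes flavonols, kept values in roots, with 9768, 10094 and 8745 in shoots and 974, 815 and 1059 in roots (log2 difference 3.33, SE 0.13, adjusted p = 3.9e-07). Caffeoyl-CoA O-methyltransferase (Solyc09g082660.3), of an enzyme family that methylates precursors of lignin, read 3240, 2753 and 2749 in shoots and 5, 6 and 0 in roots (log2 difference 9.71, SE 0.69, adjusted p = 8.6e-06).

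Several genes of the entry steps and of amide synthesis were higher in roots. Phenylalanine ammonia-lyase, the first enzyme of the pathway, had 7822, 6950 and 8466 in shoots and 16249, 18932 and 16333 in roots at Solyc10g086180.2 (log2 difference -1.15, SE 0.13, limma adjusted p = 0.00013). At Solyc09g007910.3 the same enzyme had 10582, 10992 and 10930 in shoots and 15772, 14728 and 15369 in roots, a smaller log2 difference of -0.50 (SE 0.11, adjusted p = 0.00463). Cinnamate 4-hydroxylase (Solyc06g082535.1), the next enzyme, read 4993, 3702 and 5152 in shoots and 15275, 12994 and 16249 in roots (log2 difference -1.69, SE 0.16, adjusted p = 5.0e-05). For these entry genes, values were 3702 or more in both organs and the organs differed by a log2 value under 2. Tyramine N-hydroxycinnamoyl transferase, which makes amides that plants deposit in walls, had 74, 76 and 22 in shoots and 1642, 1399 and 1493 in roots at Solyc08g068730.1 (log2 difference -4.89, SE 0.44, adjusted p = 3.5e-05). Of the 5 transferase genes of this kind tested, which lie near each other on chromosome 8 and belong to 1 family, 4 were higher in roots, and Solyc08g068770.2 read 128, 31 and 60 in shoots and 90, 57 and 65 in roots (adjusted p = 0.8).

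**Figure D3:**
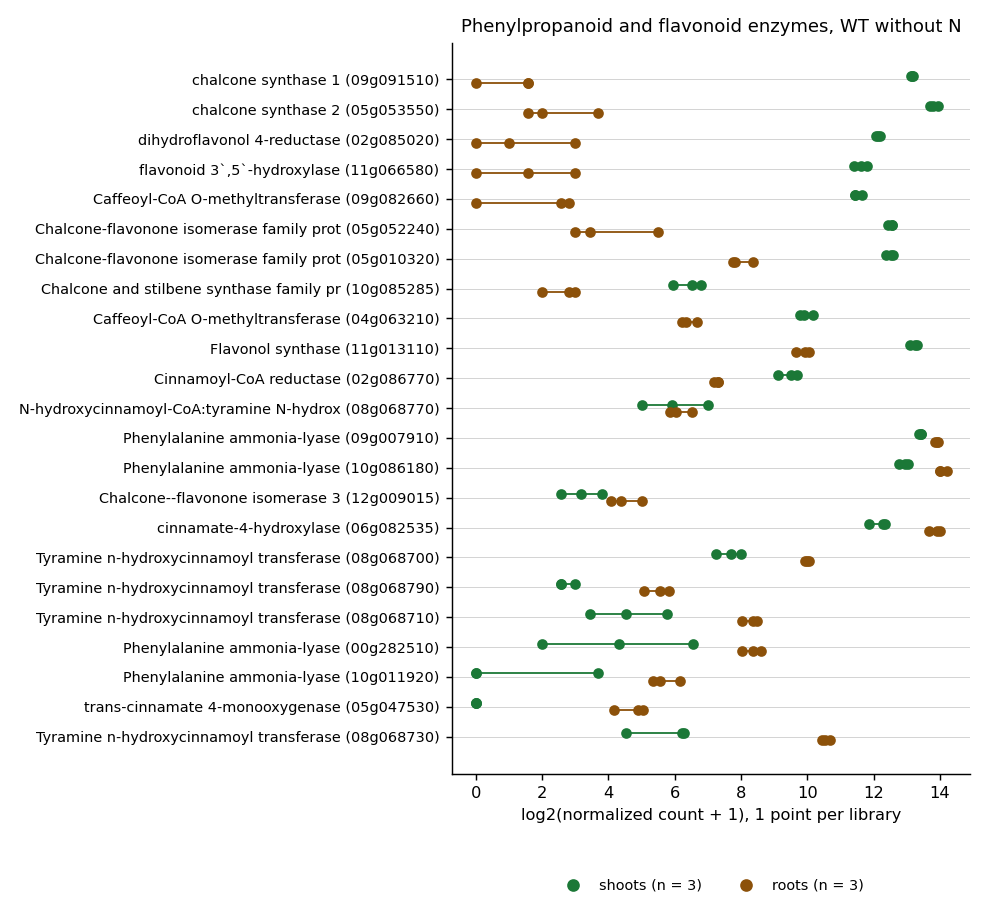
Log2(normalized count + 1) in each WT -N library (horizontal axis) for the 23 tested enzyme genes of phenylpropanoid, flavonoid and tyramine amide synthesis, with green points for shoots, brown points for roots and a line from the lowest to the highest of 3 libraries. Chalcone synthase and dihydroflavonol 4-reductase stand at 4304 or more in shoots and at 12 or less in roots, whereas 4 of the 5 tyramine transferases stand higher in roots.

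Other specialised metabolism was also divided. All 5 terpene synthase genes were higher in shoots, with a median log2 difference of 4.99, and 5 of 5 stood in the study's lists of genes down in mutant shoots. The terpene synthase gene Solyc03g006550.3 read 358, 226 and 152 in shoots and 0, 0 and 0 in roots, listed at 0 in roots. The terpene cyclase gene Solyc12g006530.2 kept root values, at 1450, 1304 and 1394 in shoots and 113, 83 and 116 in roots (log2 difference 3.73, SE 0.17, limma adjusted p = 7.8e-07). Glycosyltransferases, which attach sugars to small molecules, had a median of 2.33. Of 32 tested among 36, 23 were higher in shoots and 7 in roots, and 26 of 32 stood in the study's lists of genes down in mutant shoots. The gene Solyc12g098590.2 read 4254, 4300 and 3869 in shoots and 1, 0 and 0 in roots (log2 difference 11.68, SE 0.33, adjusted p = 1.1e-07), and at the other end Solyc04g074330.3 read 3, 3 and 0 in shoots and 550, 549 and 612 in roots (log2 difference -7.82, SE 0.55, adjusted p = 8.1e-06). Cytochromes P450 were close to evenly split, with 13 higher in shoots and 10 in roots of 28 tested among 41. The P450 gene Solyc11g006590.2 read 2696, 1512 and 1876 in shoots and 0, 0 and 0 in roots, and Solyc06g074420.1 read 0, 8 and 7 in shoots and 209, 340 and 236 in roots (log2 difference -5.95, SE 0.81, adjusted p = 0.00035). Single genes of both enzyme families were thus at 8 or less in 1 organ and above 200 in the other.

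Peroxidase genes gave calls in roots alone. Of 16 class III peroxidase and laccase genes, enzymes that oxidise phenolics in walls, 12 were tested. None was higher in shoots and 11 were higher in roots, with a median of -5.04. Of those tested, 11 of 12 stood in the study's lists of genes up in mutant shoots. In the test against *sdg33* described further on, 10 of 14 members tested had a negative and 0 a positive call. Over all genes, 16.4% had a negative and 15.6% a positive call there. Genes chosen as up in mutant shoots lean to a negative value in that test by that choice. The count therefore shows nothing particular to peroxidases. The peroxidase gene Solyc03g080150.3 read 0, 0 and 0 in shoots and 2882, 6996 and 4508 in roots, listed at 0 in every shoot library (limma adjusted p = 1.2e-07). The peroxidase gene Solyc02g094180.3 read 1, 0 and 0 in shoots and 3436, 3224 and 3526 in roots (log2 difference -11.40, SE 0.33, adjusted p = 1.3e-07). The single laccase tested, Solyc05g052340.3, read 3, 9 and 9 in shoots and 170, 313 and 192 in roots (log2 difference -4.89, SE 0.45, adjusted p = 3.8e-05). Root libraries were above shoot libraries for all 3. The remaining peroxidase, Solyc07g055190.3, overlapped between organs at 11, 6 and 33 in shoots and 9, 8 and 19 in roots.

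Cell wall proteins gave more calls in roots than in shoots. Of 31 genes described as such, 24 could be tested, 5 were higher in shoots, 15 were higher in roots and 4 did not pass the test, with a median log2 difference of -2.38. By source, 12 of 24 stood in the study's lists of genes up in mutant shoots and 12 in those of genes down there. The extensin-like gene Solyc12g098757.1, of the hydroxyproline-rich wall glycoproteins, read 48, 41 and 8 in shoots and 78438, 102024 and 87197 in roots (log2 difference -11.71, SE 0.58, limma adjusted p = 1.3e-06). The class I extensin gene Solyc09g098510.3 had the top value of the table, 264554, in all 3 root libraries, and 1080, 1527 and 181 in shoots. A CASP-like gene, Solyc06g036770.1, related to proteins that position the Casparian strip in Arabidopsis, read 18, 25 and 4 in shoots and 5458, 6276 and 7206 in roots (log2 difference -8.86, SE 0.55, adjusted p = 4.3e-06). In each of these the third shoot library was the lowest of the 6. Of the members higher in shoots, the invertase and pectin methylesterase inhibitor gene Solyc03g083770.1 read 7000, 7514 and 9211 in shoots and 472, 359 and 427 in roots (log2 difference 4.23, SE 0.15, adjusted p = 2.7e-07). Trichome birefringence-like genes, a family known for wall acetylation in Arabidopsis, gave 3 of the 5 shoot-side calls.

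Lipid transfer and cuticle genes were on both sides. Of 22 genes described as such, 15 could be tested, 4 were higher in shoots, 9 were higher in roots and 2 did not pass the test, with a median log2 difference of -2.68. By source, 11 of 15 stood in the study's lists of genes up in mutant shoots. The lipid transfer gene Solyc01g109390.3 read 0, 2 and 0 in shoots and 3172, 2285 and 2826 in roots (log2 difference -10.89, SE 0.46, limma adjusted p = 5.6e-07). The non-specific lipid-transfer protein gene Solyc10g075150.2 read 3635, 1404 and 3348 in shoots and 3, 15 and 3 in roots (log2 difference 8.66, SE 0.61, adjusted p = 8.3e-06). The GDSL esterase gene Solyc06g083650.3 read 1663, 1079 and 857 in shoots and 0, 0 and 0 in roots, listed at 0 in roots. Lipid transfer proteins carry lipids to the cuticle or to suberin.

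Defence proteins were mostly higher in roots. Of 29 genes described as such, 21 could be tested, 4 were higher in shoots, 15 were higher in roots and 2 did not pass the test, with a median log2 difference of -4.42. By source, 20 of 21 stood in the study's lists of genes up in mutant shoots. Of all genes on those lists, 359 of 449 tested for *sdg33* and 392 of 465 for *sdg34* also had a negative value. The direction is therefore not particular to defence genes. In the test against *sdg33* described further on, 15 of 26 members tested had a negative and 0 a positive call, beside 16.4% and 15.6% over all genes. A choice of genes up in mutant shoots itself leans to negative values in that test, so this count shows nothing particular to defence genes. The osmotin-like gene Solyc08g080660.1, of the antifungal thaumatin-like family, read 4, 0 and 5 in shoots and 35396, 18898 and 29327 in roots (log2 difference -13.08, SE 0.64, limma adjusted p = 1.2e-06). The pathogenesis-related 5-like gene Solyc08g080670.1, 1 locus number further on, read 7, 4 and 17 in shoots and 16912, 14784 and 13419 in roots (log2 difference -10.71, SE 0.42, adjusted p = 4.1e-07). Polyphenol oxidase precursor Solyc08g074682.1 read 2, 0 and 12 in shoots and 5704, 8836 and 4934 in roots (log2 difference -10.86, SE 0.82, adjusted p = 1.2e-05). All 3 were at 17 or less in every shoot library. The neighbouring pathogenesis-related genes on chromosome 9 went opposite ways. Solyc09g007010.1 (pathogenesis-related protein 1) read 695, 102 and 922 in shoots and 1, 1 and 1 in roots (log2 difference 7.66, SE 0.77, adjusted p = 6.3e-05), and Solyc09g007020.1 read 0, 0 and 0 in shoots and 2048, 1651 and 1526 in roots (adjusted p = 7.1e-08). The pathogenesis-related PR-4 gene Solyc01g097240.3 read 944, 221 and 1479 in shoots and 37, 36 and 12 in roots (log2 difference 4.68, SE 0.73, adjusted p = 0.00076). The second shoot library was the lowest shoot library for both shoot-side genes. The 4 calls in shoots came down to 2 without any 1 of the root libraries or without the first shoot library.

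Hormone genes lay on both sides. In the list of cytokinin, gibberellin, abscisic acid and jasmonate genes, 20 of 26 were tested. Of these, 7 were higher in shoots and 9 in roots, each of them by a log2 difference of at least 2. All 3 abscisic acid receptor genes tested were higher in roots. Solyc05g052420.2 read 0, 0 and 0 in shoots and 3146, 3055 and 3220 in roots (limma adjusted p = 5.0e-08), Solyc06g050500.2 had a log2 difference of -3.27 and PYL1 (Solyc08g076960.1) -2.41. The cytokinin riboside phosphoribohydrolase gene Solyc10g084150.2, of the enzyme that releases active cytokinin, read 5920, 6024 and 6500 in shoots and 43, 53 and 48 in roots (log2 difference 6.98, SE 0.13, adjusted p = 4.3e-08). Cytokinin oxidase 2 (Solyc01g088160.3), of the enzyme that degrades cytokinin, read 122, 95 and 116 in shoots and 4, 15 and 16 in roots (log2 difference 3.33, SE 0.50, adjusted p = 0.00059). Both cytokinin metabolism genes were therefore higher in shoots, and the response regulator gene Solyc06g048930.3 was higher in roots with 0, 15 and 7 in shoots and 76, 79 and 91 in roots (log2 difference -4.04, SE 0.92, adjusted p = 0.00559). Gibberellin 2-oxidases and the related 2-beta-dioxygenase inactivate gibberellin. Solyc02g080120.2 read 1740, 1500 and 1014 in shoots and 19, 8 and 13 in roots (log2 difference 6.67, SE 0.34, adjusted p = 1.6e-06), while gibberellin 2-oxidase 4 (Solyc07g061720.3) read 45, 17 and 15 in shoots and 206, 142 and 262 in roots (log2 difference -3.07, SE 0.45, adjusted p = 0.00058).

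Auxin genes were about evenly divided by calls, but not past the fold threshold, where 7 were higher in shoots and 3 in roots. Of 47 genes described as such, 18 could be tested, 8 were higher in shoots, 9 were higher in roots and 1 did not pass the test, with a median log2 difference of -0.16. The auxin efflux carrier gene Solyc12g095750.2 read 2639, 1793 and 1682 in shoots and 0, 0 and 0 in roots, listed at 0 in roots (limma adjusted p = 8.8e-08). SlPIN5 (Solyc01g068410.3), whose Arabidopsis relative moves auxin at the endoplasmic reticulum, read 16, 21 and 11 in shoots and 58, 120 and 118 in roots (log2 difference -2.52, SE 0.40, adjusted p = 0.00081). Auxin carriers thus lay on both sides. Of 28 small auxin up-regulated RNA (SAUR) genes described, 6 were tested, 4 were higher in shoots and 2 in roots. The SAUR-like gene Solyc06g053260.1 read 658, 402 and 280 in shoots and 0, 2 and 0 in roots (log2 difference 8.19, SE 0.54, adjusted p = 5.5e-06). The 3 SAUR genes named in the study were higher in shoots, Solyc01g096340.3 by 2.29, Solyc01g091030.3 by 1.90 and Solyc07g066560.1 by 1.08 on the log2 scale. The 2 root-side SAUR calls came down to 1 without any single library other than the third shoot library. SAUR genes form a large multigene family, so the assignment of reads among them is uncertain.

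Ethylene response factors gave more calls in roots, and MYB factors more in shoots. Of 17 ethylene response factor genes tested among 20, 13 were higher in roots and 3 in shoots, with a median of -2.56, and 11 of 17 stood in the study's lists of genes up in mutant shoots. The ethylene-responsive factor gene Solyc05g052040.1 read 62, 42 and 62 in shoots and 1056, 1368 and 1551 in roots (log2 difference -4.56, SE 0.22, limma adjusted p = 1.2e-06). Of 24 tested among 30, 17 were higher in shoots and 6 in roots, with a median of 2.01, and 17 of 24 stood in the study's lists of genes down in mutant shoots. R2R3MYB 75 (Solyc10g086250.2) read 3762, 3152 and 2165 in shoots and 47, 40 and 48 in roots (log2 difference 6.01, SE 0.22, adjusted p = 3.0e-07), and R2R3MYB 28 (Solyc10g086270.2) on the same chromosome read 404, 282 and 305 in shoots and 0, 1 and 0 in roots (log2 difference 8.02, SE 0.38, adjusted p = 1.0e-06). On the root side, the MYB-like gene Solyc10g076460.2 read 2, 2 and 0 in shoots and 718, 532 and 665 in roots (log2 difference -8.25, SE 0.47, adjusted p = 2.6e-06). Both families included members with complete separation in either direction.

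Other regulators were more mixed. Among bHLH factors, 11 were higher in shoots and 8 in roots of 24 tested among 29. bHLH 150 (Solyc09g065100.2) read 972, 772 and 950 in shoots and 3, 12 and 5 in roots (log2 difference 7.04, SE 0.43, limma adjusted p = 3.7e-06). Among homeobox, LOB and TCP factors, 4 were higher in shoots and 8 in roots of 21 tested among 32, and 13 of 21 stood in the study's lists of genes up in mutant shoots. A putative homeobox protein knotted-1 gene, Solyc12g010410.2, of a family known for meristem upkeep in shoots, read 26, 6 and 20 in shoots and 1299, 1244 and 1295 in roots (log2 difference -6.34, SE 0.47, adjusted p = 1.1e-05), so it was higher in roots. Without the first root library there was 1 call in shoots in place of 4. Every LOB domain gene called was higher in roots, and Solyc06g007390.3 was listed at 0 in all 3 shoot libraries. NAC and WRKY factors were split 5 to 4 in favour of shoots among 13 tested of 17. The NAC gene Solyc07g066330.3 read 17, 26 and 22 in shoots and 917, 932 and 1058 in roots (log2 difference -5.44, SE 0.22, adjusted p = 4.4e-07). WRKY 44 (Solyc10g084380.1) read 380, 816 and 407 in shoots and 32, 56 and 32 in roots (log2 difference 3.67, SE 0.36, adjusted p = 5.9e-05). The NAC gene was above 900 in every root library and under 30 in every shoot library.

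Receptor kinases, which sense signals at the cell surface, were found on both sides. Of 32 tested among 47, 11 were higher in shoots, 15 in roots and 6 did not pass. The leucine-rich repeat gene Solyc02g024060.2 read 1660, 1141 and 766 in shoots and 1, 2 and 2 in roots (log2 difference 8.76, SE 0.36, limma adjusted p = 5.1e-07). The receptor-like kinase CHRK1 gene Solyc07g005110.3 read 3, 2 and 0 in shoots and 240, 219 and 208 in roots (log2 difference -6.61, SE 0.52, adjusted p = 1.6e-05). These 2 genes lay at the opposite ends of the list. Cell cycle genes gave 6 calls in shoots and none in roots of 9 tested among 13, and 9 of 9 stood in the study's lists of genes down in mutant shoots. Without the third shoot library 1 call in roots appeared. The cyclin-dependent kinase inhibitor gene Solyc01g108610.3, which restrains the cycle, read 386, 462 and 832 in shoots and 24, 42 and 29 in roots (log2 difference 4.06, SE 0.35, adjusted p = 2.4e-05). Among glutaredoxins and thioredoxins, redox carriers, 5 of 16 were tested, with 3 higher in shoots and 1 in roots.

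Late embryogenesis and heat shock genes, which protect proteins under stress, gave more calls in shoots than in roots. Of 40 genes described as such, 29 could be tested, 12 were higher in shoots, 5 were higher in roots and 12 did not pass the test, with a median log2 difference of 1.01. By source, 26 of 29 stood in the study's lists of genes down in mutant shoots. The putative heat shock protein gene Solyc07g055720.3 read 5184, 3882 and 3284 in shoots and 8, 9 and 5 in roots (log2 difference 8.96, SE 0.27, limma adjusted p = 1.4e-07). Heat shock protein 70 (Solyc11g066100.2), a chaperone, read 518, 68 and 290 in shoots and 97, 116 and 168 in roots, a log2 difference of 0.81 (95% interval -0.76 to 2.38, adjusted p = 0.322). The second shoot library was below all other libraries for heat shock protein 70, and the other shoot libraries were above all root libraries. Without the second shoot library, heat shock protein 70 passed (log2 difference 1.64, adjusted p = 0.00554) and the list gave 19 calls in shoots in place of 12.

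**Figure D4:**
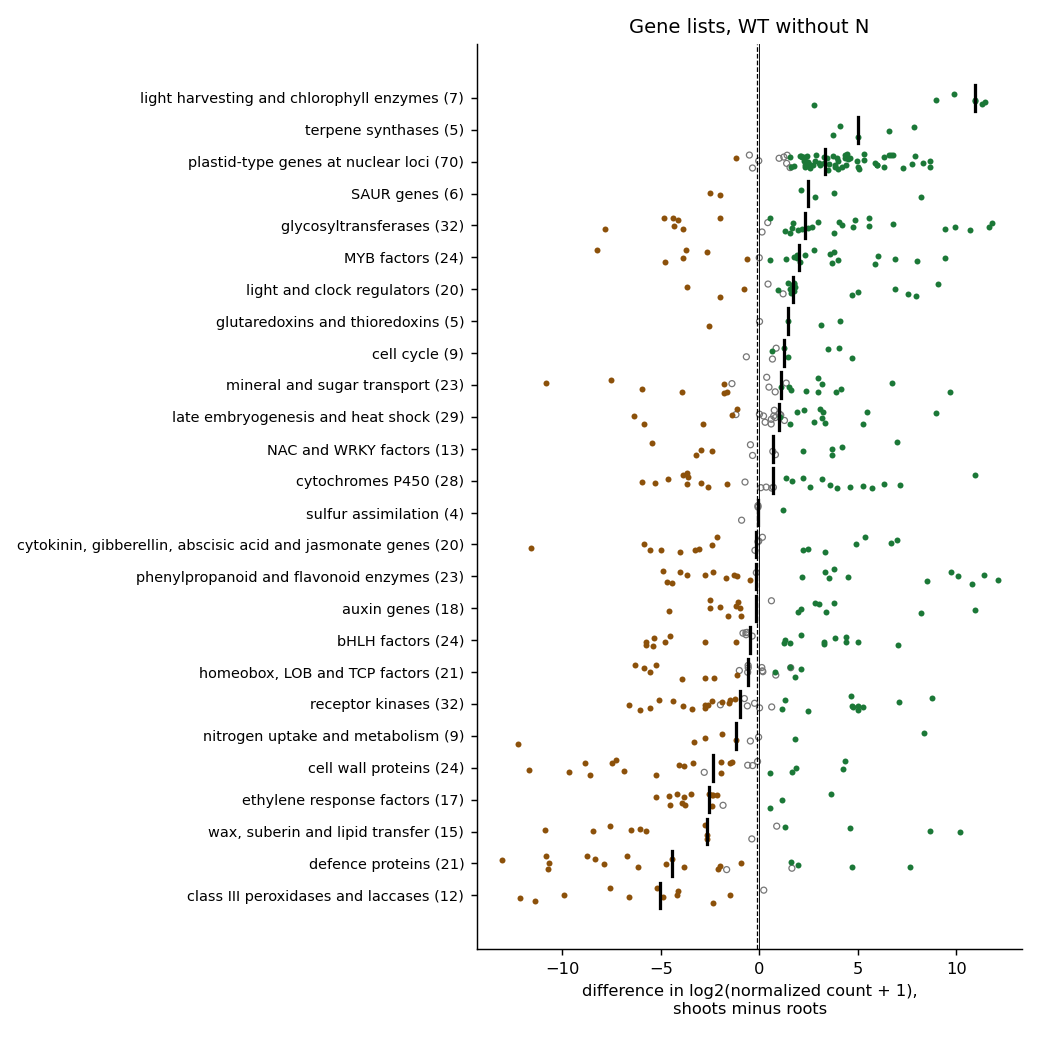
Shoot minus root difference in log2(normalized count + 1) in WT -N for every tested gene of the lists, 1 point per gene, with the number tested in parentheses, filled green or brown where called in shoots or roots, open where not, a bar at the list median and a dashed line at the median of all genes (-0.12). Light harvesting lies furthest to the shoot side (median 10.93) and class III peroxidases and laccases furthest to the root side (-5.04).

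The widest differences of all reached log2 values above 14 in both directions. Past a log2 difference of 10 there were 84 genes called in shoots and 114 in roots. Solyc02g085950.3, which has no description here, read 210242, 210242 and 96621 in shoots and 3, 6 and 7 in roots (log2 difference 14.71, SE 0.37, limma adjusted p = 7.5e-08). Solyc07g041720.1, also without one, read 47455, 60754 and 29327 in shoots and 0, 2 and 5 in roots (log2 difference 14.03, SE 0.61, adjusted p = 6.5e-07). On the root side, the subtilisin-like protease gene Solyc08g079930.2 read 2, 0 and 0 in shoots and 37682, 27824 and 37682 in roots (log2 difference -14.53, SE 0.43, adjusted p = 1.3e-07). All 3 were at 27824 or more in 1 organ and under 10 in the other, where the log2 value depends on the added 1.

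The targets of the study's mutations did not differ detectably between WT organs. *SDG33* (Solyc04g057880.3) read 435, 562 and 404 in shoots and 513, 525 and 474 in roots, a log2 difference of -0.12 (95% interval -0.49 to 0.24, limma adjusted p = 0.516). *SDG34* (Solyc06g059960.3) read 127, 152 and 194 in shoots and 177, 156 and 201 in roots, a log2 difference of -0.19 (95% interval -0.70 to 0.33, adjusted p = 0.482). Both encode histone H3 methyltransferases and had overlapping values in the organs. Across the table, 6296 genes, 29.93% of those tested, had a 95% interval that lay within 1 log2 unit of 0 on either side.

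MicroRNA loci were mostly below the level at which the table can be read. Of 104 loci listed, 5 were tested and 3 were called, all in shoots. MIR156a, whose product restrains SPL factors and holds plants in the juvenile phase, read 232, 188 and 76 in shoots and 0, 1 and 0 in roots (log2 difference 6.90, SE 0.51, limma adjusted p = 1.1e-05). MIR172a, whose product acts on AP2-like factors in the adult phase, read 114, 37 and 66 in shoots and 0, 1 and 0 in roots (log2 difference 5.72, SE 0.50, adjusted p = 2.9e-05). MIR6022 read 107, 88 and 300 in shoots and 22, 25 and 38 in roots (log2 difference 2.32, SE 0.49, adjusted p = 0.00372). Each of these was higher in every shoot library than in any root library. MIR482e, of a family that targets resistance genes, had a log2 difference of 0.67 (adjusted p = 0.113) and passed only without the variance trend. MIR167b, whose product targets auxin response factors, had one of 0.21 (adjusted p = 0.789). The libraries were not made for small RNA, the strand counted was not stated, and reads of precursor transcripts cannot be told apart from those of genes that overlap these loci.

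The organ difference with N supplied was set beside that without N, since the 6 WT +N libraries are separate from the 6 used so far. Of 21112 genes tested under +N, 7053 were higher in shoots and 9328 in roots (77.6% called). Across the 20636 genes tested in both, the log2 differences had a Pearson r of 0.968, where genes are not independent replicates. Of the 3086 genes past both thresholds in -N shoots, 3026 (98.06%) also had every +N shoot library above every +N root library, as 34.09% of all genes did. Of the 2949 genes on the root side, 2874 (97.46%) had every +N root library above every +N shoot library, as 45.8% of all genes did. Only 5 genes past both thresholds had the opposite order with no overlap under +N, 4 of them from the shoot side. One was the SAUR-like gene Solyc08g079150.1, chosen after its values were seen, with 135, 52 and 364 in -N shoots and 21, 14 and 21 in -N roots, and 141, 98 and 88 in +N shoots and 209, 305 and 292 in +N roots.

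The difference of the organ differences was then tested in 1 fit of the 12 WT libraries, as -N minus +N. Of 21875 genes tested, 2246 (10.3%) passed, 1186 (5.42%) in the positive direction, where the shoot minus root value was larger under -N, and 1060 (4.85%) in the negative. With a log2 value of at least 2, 190 (0.869%) and 172 (0.786%) genes passed, 1.65% in all. The numbers depended on single libraries. There were 544 positive and 534 negative calls without the third +N root library, 669 and 623 without the second -N root library, and 691 and 696 without the first +N root library. Without the second +N root library there were 723 and 672, and without the third +N shoot library the negative calls were 627. Without the third -N shoot library the calls came to 1559 and 1401. Rescaling each library by the median of ratios gave 855 positive and 1323 negative calls, which turned the balance of directions.

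Some genes that were near equal or differed less between organs under -N were far higher in roots under +N. The nitrate transporter gene Solyc08g007430.2, near equal between organs under -N, read 32, 22 and 36 in +N shoots and 1954, 2254 and 2074 in +N roots, an organ by N value of 6.50, SE 0.60, adjusted p = 0.0001 in limma. Its root values under +N were above all other WT libraries. The LOB domain gene Solyc01g107190.3 read 40, 35 and 84 in -N shoots and 35, 48 and 51 in -N roots and 486, 508 and 612 in +N shoots and 4564, 5526 and 5704 in +N roots (3.45, SE 0.39, adjusted p = 0.00034). For this gene both organs were higher under +N in every library, roots more so. The cationic amino acid transporter gene Solyc11g006710.2 was already called higher in roots under -N, as given above. It read 40, 35 and 34 in +N shoots and 578, 669 and 824 in +N roots (3.03, SE 0.33, adjusted p = 0.00028). In the opposite direction, the glutaredoxin gene Solyc01g067460.2 read 1, 0 and 0 in -N shoots and 0, 0 and 0 in -N roots and 24, 46 and 38 in +N shoots and 0, 0 and 0 in +N roots (adjusted p = 0.00055). Only its +N shoot values stood above 1.

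By list, late embryogenesis and heat shock genes gave 8 positive and 0 negative calls of 33 tested, beside 5.42% and 4.85% over all genes. Of the 29 members tested under -N, 26 stood in the study's lists of genes down in mutant shoots. Such lists were chosen in part on these WT libraries, so the direction of these and the following list counts is not independent of that choice. The putative heat shock protein gene Solyc01g102960.3 read 84, 15 and 39 in -N shoots and 0, 0 and 0 in -N roots and 25, 54 and 11 in +N shoots and 56, 38 and 46 in +N roots (adjusted p = 0.00137). Its root values went from 0 in every -N library to 38 or more in every +N library, while the shoot values of both N conditions overlapped. Light harvesting and chlorophyll genes gave 3 negative calls of 7 tested, that is, a smaller shoot excess under -N. The PsbP-like gene Solyc01g087040.2 was among them, with 1660, 1404 and 1648 in +N shoots and 57, 63 and 64 in +N roots (-1.90, SE 0.27, adjusted p = 0.00147). Its values were lower under -N than under +N in both organs, and more so in shoots. Glycosyltransferases gave 5 positive and 5 negative calls of 35 tested.

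**Figure D5:**
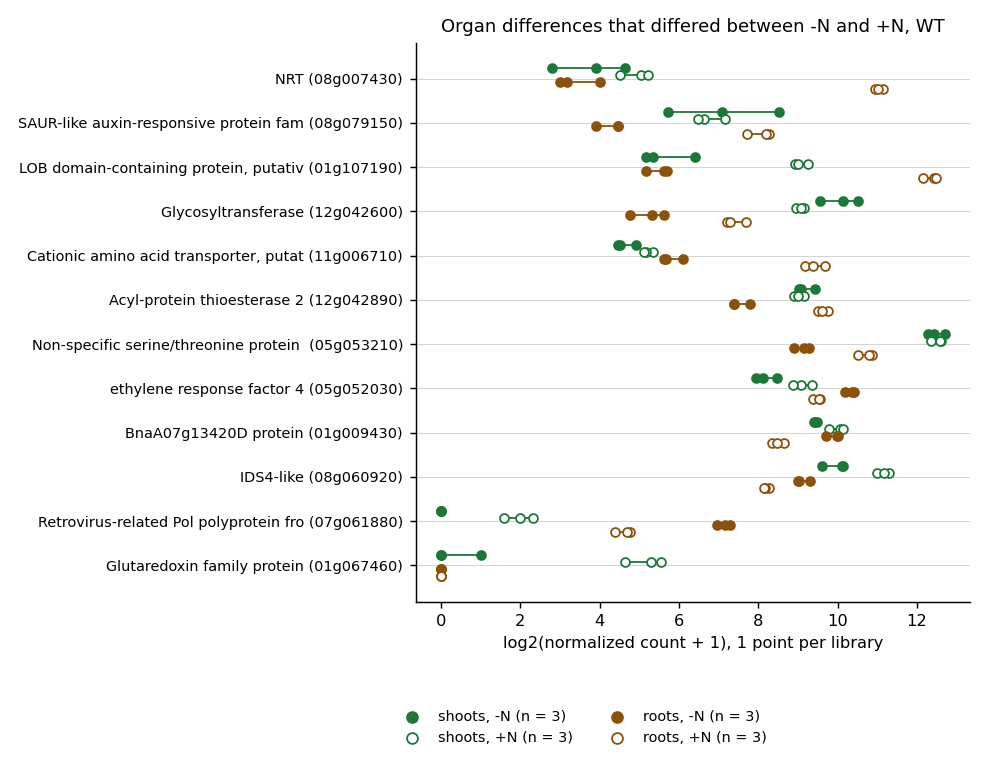
Log2(normalized count + 1) in the 12 WT libraries (horizontal axis) for genes whose organ difference changed with N, with green points for shoots, brown points for roots, filled under -N and open under +N, and a line from the lowest to the highest of 3 libraries. The nitrate transporter and LOB domain genes are near equal between organs under -N and higher in roots under +N.

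The same WT -N libraries were set against the shoots and roots of each mutant under -N, in 1 fit per mutant. For *sdg33*, 6993 of 21831 genes tested had a different organ difference (32.0%, 3403 larger in WT in the shoot direction and 3590 in the root direction). For *sdg34*, 5798 of 21821 did (26.6%, 2867 and 2931). With a log2 value of at least 2 as well, 6.87% of genes passed for *sdg33* (3.48% positive, 3.39% negative) and 6.48% for *sdg34* (3.02% positive, 3.46% negative). Both fits share the 6 WT libraries, so the values are not independent. Genes named here have descriptions because the study picked them as differing in a mutant, and they are not independent evidence. The NAC gene Solyc07g066330.3 read 2282, 1975 and 1851 in *sdg33* shoots and 854, 997 and 915 in *sdg33* roots, and 2374, 1924 and 2436 in *sdg34* shoots and 1061, 950 and 886 in *sdg34* roots. The organ difference of WT minus that of *sdg33* was -6.58, SE 0.21, adjusted p = 5.6e-09. For *sdg34* it was -6.65, with an adjusted p of 1.1e-08. Every mutant shoot library was above every mutant root library, the reverse of the order in WT, while root values overlapped between genotypes. The ethylene-responsive element binding factor gene Solyc12g056980.1 read 79, 70 and 64 in WT shoots and 434, 436 and 398 in WT roots, 1836, 1761 and 1727 in *sdg33* shoots and 610, 798 and 620 in *sdg33* roots, and 1915, 1987 and 1761 in *sdg34* shoots and 616, 584 and 602 in *sdg34* roots. Its difference from WT was -3.96 for *sdg33* and -4.21 for *sdg34*, also with every mutant shoot library above every mutant root library. The tyramine transferase gene Solyc08g068700.1 read 7856, 7856 and 6978 in *sdg33* shoots and 1254, 1302 and 1304 in *sdg33* roots (-4.89, SE 0.21, adjusted p = 8.7e-08), so its order between organs was the reverse of that in WT.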

How the data were processed

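RNA was measured by sequencing in shoots and roots of tomato seedlings, and the 6 libraries of WT under -N were compared, with 6 WT +N and 12 mutant -N libraries for the tests of differences. The authors mapped reads with BBmap, counted them per gene with featureCounts and used DESeq2 for their own tests, with versions not given in the sources used here. The deposited values are treated as a score, since they are the authors' read counts after full quantile normalization over 36 libraries, rounded to whole numbers, so all libraries share 1 set of sorted values and the depth behind a value is unknown. A count test was therefore not used. That normalization forces equal distributions on organs that differ in RNA make-up, and leaves 12678 values of 0 in every library.

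A log2 scale with 1 added to each value was used. The models were fitted in limma (version 3.58.1, R 4.3.3, with a variance trend in eBayes and no block) to loci that reached 10 in 3 or more of the fitted libraries, with Benjamini-Hochberg adjustment over all loci tested. A gene was called at an adjusted p under 0.05, and the fold threshold was a log2 difference of at least 2. P-values measure the spread between the 3 pools of plants in each group. Tests were tried on simulated data first. Alternatives were other pseudocounts, filters, a rescaling by median of ratios, the replicate block, fits on 12 WT or 36 libraries, no variance trend, other fold thresholds and leaving out each library.

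Gene descriptions came from the study's supplementary lists of genes differing between mutants and WT, and lists were made from them by keywords. The members and lists were chosen with earlier results of these data known. Named by rule were genes the study names, organ markers, up to 3 members of each list and direction with the largest difference among called genes without overlap, the 10 described genes highest in each direction, the 2 widest of all genes in each direction, the genes with the smallest adjusted p of each interaction (5 per direction for N and 3 per direction for each mutant) and every tested miRNA locus. Another 26 list members were named for their role after their values were seen. For a gene listed at 0 in every library of an organ no fold is given. No sequences are shown.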

Additional observations from a re-analysis of the deposited data

Results flagged for a closer look

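The organ difference of WT under -N differed from that of another condition for the genes below, by the limma test of the difference itself with Benjamini-Hochberg adjustment. Against +N, 2246 genes passed. Larger in the shoot direction under -N were the nitrate transporter gene Solyc08g007430.2 (6.50), the putative heat shock protein gene Solyc01g102960.3 (6.11), the SAUR-like gene Solyc08g079150.1 (4.14), the LOB domain gene Solyc01g107190.3 (3.45), the glycosyltransferase gene Solyc12g042600.2 (3.17), the cationic amino acid transporter gene Solyc11g006710.2 (3.03), the LIGHT-DEPENDENT SHORT HYPOCOTYLS-like gene Solyc04g009980.3 (2.91) and acyl-protein thioesterase 2 (Solyc12g042890.2, 2.26), as log2 values. The value for Solyc01g102960.3 depends on the added 1, since it was listed at 0 in -N roots, and that for Solyc04g009980.3 was 2.17 with an adjusted p of 0.374 at a pseudocount of 0.1.

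In the other direction lay the glutaredoxin gene Solyc01g067460.2 (-4.83, listed at 0 in roots under both N conditions), Solyc07g061880.2, described as a retrovirus-related Pol polyprotein (-4.49, listed at 0 in -N shoots), the homeobox-leucine zipper gene Solyc02g077590.1 (-2.28), the heavy metal transport gene Solyc03g080100.3 (-2.18) and the IDS4-like gene Solyc08g060920.3 (-2.11). The call for Solyc02g077590.1 was lost at either other pseudocount (adjusted p 0.0535 and 0.0651) and without any of several libraries.

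Against *sdg33* under -N, 6993 genes passed, and against *sdg34* 5798 did. For *sdg33*, WT minus mutant was 9.05 for the B-box gene Solyc11g068390.1, listed at 0 in WT roots, 5.23 for the tetratricopeptide repeat gene Solyc08g076730.3 and 3.07 for the arogenate dehydratase gene Solyc11g066890.1. It was -6.58 for the NAC gene Solyc07g066330.3, -4.89 for the tyramine transferase gene Solyc08g068700.1 and -3.96 for the ethylene-responsive element binding factor gene Solyc12g056980.1. For *sdg34*, it was 3.37 for Solyc11g066890.1, 2.87 for the phenylalanine ammonia-lyase gene Solyc09g007910.3, 2.73 for the P450 gene Solyc10g078240.2, -6.65 for Solyc07g066330.3, -4.21 for Solyc12g056980.1 and -3.29 for the NPH3 family gene Solyc07g043130.3. Both sets share the WT libraries, and groups of 3 are too small to look for single distant libraries.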

How the results depend on the processing

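Of 205 genes named for the organ difference, results under the alternatives kept their direction and side of the threshold in 2905 instances, lost the call in 24, gained it in 2 and turned in 15. With at least 10 required in every library, 1624 genes were higher in shoots and 1137 in roots by a log2 difference of at least 2. That filter removes every gene with a value under 10 in any library, among them those seen in 1 organ alone. With a fold threshold of 1 there were 4843 and 4869, and with none 6186 and 7477. Leaving out 1 library gave 5484 to 6360 genes in shoots and 6295 to 7946 in roots, or 3077 to 3111 and 2874 to 2989 past the fold threshold. The median difference moved from -0.12 to -0.06 under median of ratios.

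For the organ by N difference past a log2 value of 2, a pseudocount of 10 gave 93 negative calls, and at least 10 in every library gave 78 positive and 58 negative. Leaving out 1 library gave 544 to 1559 positive and 534 to 1401 negative calls, or 126 to 231 and 124 to 218 past 2. A pseudocount of 10 gave 474 and 409 genes past 2 for *sdg33* and 398 and 449 for *sdg34*. Leaving out 1 library gave 2685 to 3833 and 2710 to 4324 for *sdg33* (677 to 821 and 673 to 921 past 2), and 2283 to 3392 and 2237 to 3685 for *sdg34* (608 to 749 and 666 to 881 past 2).

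Among named genes, directions turned only for values that did not pass the test. Leaving out 1 library gave the nitrate transporter gene Solyc08g007430.2 a difference of -0.033 to 0.89, the LOB gene Solyc01g107190.3 -0.23 to 0.39, MIR167b -0.19 to 0.94, adenylyl-sulfate reductase Solyc02g080640.3 -0.33 to 0.11, peroxidase Solyc07g055190.3 -0.41 to 0.73, the transferase Solyc08g068770.2 -0.67 to 0.33 and nitrate reductase Solyc11g013810.2 -0.36 to 0.29. Nitrate reductase was at 0.022 under median of ratios. The organ by N value ran from -0.14 to 0.10 for *SDG33* and from -0.016 to 0.46 for NRT1.1. For the light harvesting marker Solyc08g067320.2 it was 0.21 with a pseudocount of 0.1. The causes were not tested.

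Deviations of same-numbered shoot and root libraries from their group means correlated at 0.0312, -0.0328 and 0.0159 across genes. These values cannot show whether such libraries came from the same plants, since organs of the same plants need not deviate alike. With the replicate block, 5930 genes were higher in shoots and 7148 in roots, 3088 and 2966 of them past the fold threshold. The depth behind the deposited values is unknown, so no value here could be weighed by it.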

Other observations

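Some genes with large organ differences in the same direction followed each other in locus order. In all, 3086 genes were past the fold threshold in shoots and 2949 in roots, of 21035 tested. This was looked for after the values were seen and was not tested. Among tested loci in the order of their identifiers, 96 runs of at least 4 neighbours were all past the fold threshold in 1 direction, 42 in shoots and 54 in roots, and 17 runs held at least 7. On chromosome 1, a run of 7 root-side genes held 6 genes described as cysteine and histidine-rich C1 domain proteins, of which Solyc01g073800.2 read 0, 0 and 0 in shoots and 798, 868 and 798 in roots. On chromosome 8, a run of 7 root-side genes held 3 genes described as subtilisin-like proteases. The longest shoot-side run, of 14 loci on chromosome 11, held only 4 loci with a description. Among them were loci described as Ycf1 and as an NAD(P)H-quinone oxidoreductase subunit, of the kind found in the chloroplast genome. Another, Solyc11g021170.1, is described as a methyltransferase superfamily protein and read 107004, 107004 and 180398 in shoots and 851, 1584 and 932 in roots. On chromosome 2, the chlorophyll a-b binding genes lay in a run of 8. Members of such runs can resemble each other in sequence, and the part of shared reads in these runs was not tested.

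The values at the bottom of the table held a pattern of their own. Each library had 893 loci at a value of 1, and 54.5%, 54.1% and 33.7% of them in the 3 shoot libraries lay on chromosome 12, which holds 6.94% of loci, against 9.52%, 9.07% and 0% in the root libraries. Of the 104 miRNA loci, none was at 0 in a shoot library, while 83, 84 and 85 were at 0 in the root libraries, and 92 to 96 were at 3 or less in every library. Presence or absence of a locus at such values is therefore not given as a difference between organs.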
